A study of Mus musculus with 12 samples.

Results

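The prostaglandin and leukotriene genes described here are 10 genes of arachidonic acid metabolism chosen by name and not by a threshold on these libraries, with earlier results of the same data known. They are Ptgs1, Ptgs2, Ptges, Hpgds, Hpgd, Alox5, Alox5ap, Ltc4s, Ptger2 and Ptger4, and all 10 were found among the 25700 gene identifiers of the count table. All 10 also passed the filter on low counts that left 13844 genes for testing.

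Cells make prostaglandins and leukotrienes from arachidonic acid, a fatty acid that phospholipases release from membranes. The cyclooxygenases convert it to prostaglandin H2, from which terminal synthases make prostaglandin E2 or D2, and 5-lipoxygenase with its activating protein converts it to leukotriene A4. In the liver, macrophages are a known source of these lipids, which act on neighbouring cells and on the macrophage itself through G protein-coupled receptors.

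Bulk RNA sequencing was done on 12 liver preparations from male mice aged 8 to 10 weeks, 3 mice in each of 4 groups. The groups were sph/sph mice given agonistic anti-CD40, wild-type (WT) littermates given anti-CD40, sph/sph mice given saline and WT littermates given saline. Anti-CD40, an antibody that activates the receptor CD40 on macrophages, B cells and dendritic cells, was given intraperitoneally at 20 mg/kg, and livers were taken after 30 h. Mice with 2 copies of the sph allele are known for haemolytic anaemia. The labels give the control genotype as wild type, while the column names of the count table call the same groups heterozygous, and which is right was not settled here. Nonparenchymal cells from collagenase-perfused livers were bound to beads carrying an antibody to F4/80, a mouse macrophage surface protein, so the preparations are enriched for macrophages and not pure. Libraries are called A, B and C within a group as a name only.

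The libraries held 14991250 to 18984067 counts assigned to genes. The A library of each group had 0 reads of 4 Y-linked genes, against 2436 to 4055 in the other 8 libraries, although all animals are labelled male. A further library, sph/sph anti-CD40 C, stood apart from the other 2 of its group, with a second principal component of -26.5 against 102 and 75.8, and its B cell marker sum was 3420 CPM (counts scaled to library size) against 244 and 68 CPM. In the column names the A libraries of sph/sph and WT anti-CD40 livers share an identifier, as do those of sph/sph and WT saline livers, and no source used here says what it marks. Results of the 10 genes are also given without the A libraries or without sph/sph anti-CD40 C wherever that brings or ends a call. The marker list of Kupffer cells, the macrophages resident in liver sinusoids, summed to 21400 to 38500 CPM in sph/sph anti-CD40 livers, 435 to 1040 CPM in WT anti-CD40 livers, 33600 to 47800 CPM in sph/sph saline livers and 29500 to 34700 CPM in WT saline livers, and none of its 10 genes was at 0 in any library. F4/80 itself, encoded by Adgre1, had 1180, 2240 and 1100 CPM in sph/sph anti-CD40 livers and 173, 51.4 and 39.8 CPM in WT anti-CD40 livers, against 1430 to 1910 CPM in sph/sph saline livers and 1580 to 1940 CPM in WT saline livers. The monocyte list of 10 genes summed to 534 to 2220 CPM in sph/sph anti-CD40 livers, 1200 to 3240 CPM in WT anti-CD40 livers, 146 to 378 CPM in sph/sph saline livers and 254 to 404 CPM in WT saline livers, also with no gene at 0. Erythroid markers summed to 4050 to 14900 CPM in sph/sph anti-CD40 livers against 30.1 to 183 CPM in WT anti-CD40 livers, and to 4890 to 8210 CPM in sph/sph saline livers against 64.1 to 287 CPM in WT saline livers. In bulk libraries, fewer cells of a type and less RNA per cell cannot be told apart, and this holds for every difference below.

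**Figure D1:**
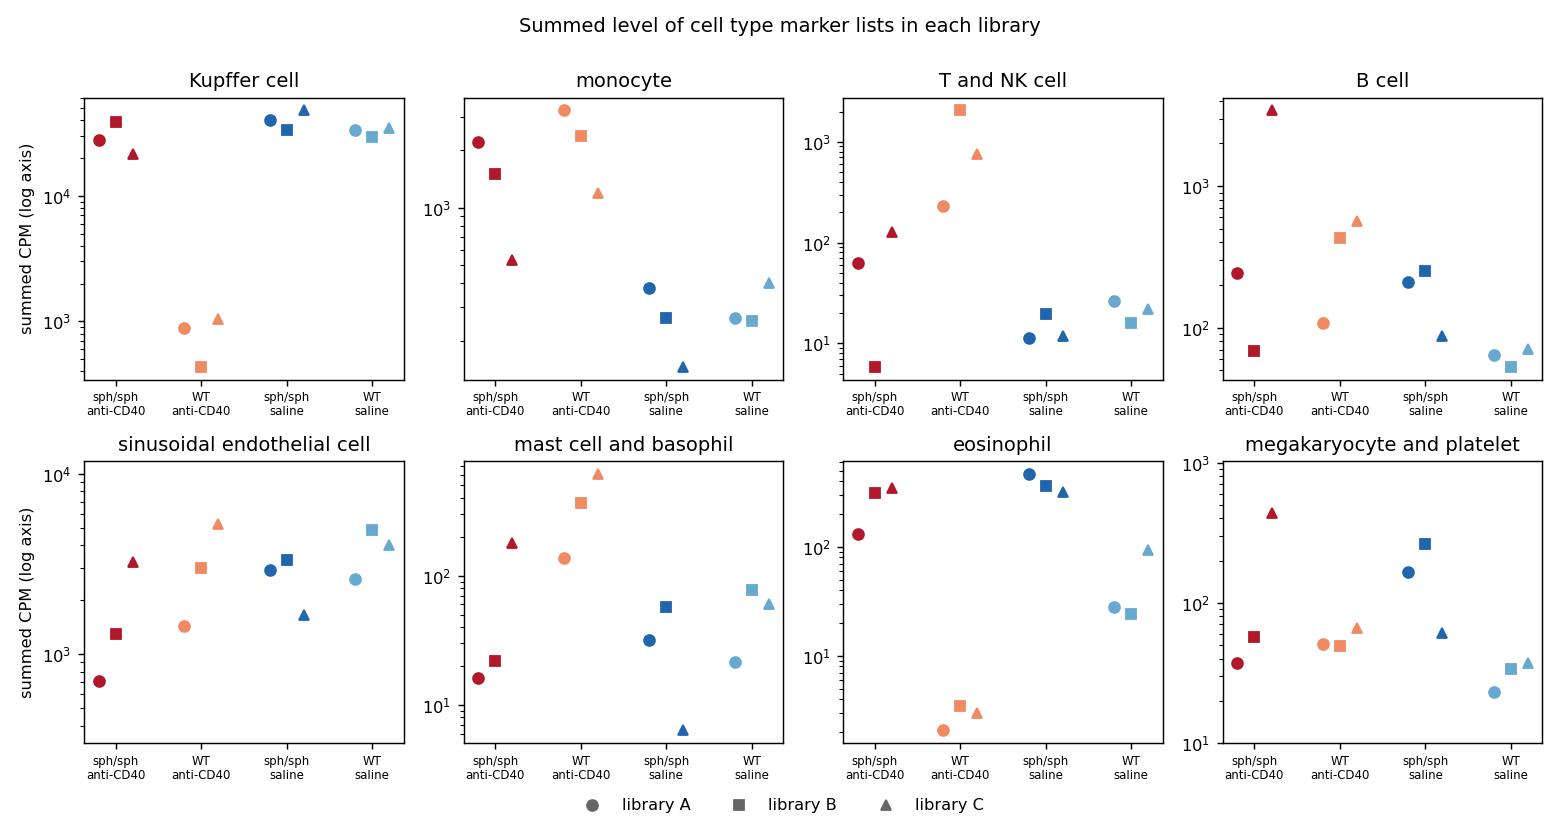
Summed CPM (log axes) of 8 cell type marker lists in each library, with groups from left to right sph/sph anti-CD40, WT anti-CD40, sph/sph saline and WT saline and with 1 symbol per library. The Kupffer cell list lay between 435 and 1040 CPM in WT anti-CD40 livers and between 21400 and 47800 CPM in the other 3 groups.

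Under saline, the cyclooxygenase-1 branch and the prostaglandin-degrading enzyme were abundant, and cyclooxygenase-2 and its partner synthase were nearly absent. As CPM per kilobase of exon, the scale on which genes can be compared, the WT saline mean was 677 ± 125 for Hpgd, 210 ± 14.9 for Ptgs1 and 163 ± 9.19 for Alox5ap (SD, n = 3 each). Ltc4s at 19 ± 7.63, Hpgds at 8.83 ± 0.305 and Ptger2 at 6.62 ± 0.422 formed a middle range, followed by Ptger4 at 1.04 ± 0.376 and Alox5 at 0.590 ± 0.0689 CPM per kilobase. Ptgs2 at 0.0603 ± 0.0208 and Ptges at 0.0235 ± 0.0294 came last, and of the neighbours in this WT order only that last pair overlapped in range. The sph/sph saline order had the same first 3 genes, with 558 ± 71.0 for Hpgd, 153 ± 9.59 for Ptgs1 and 121 ± 23.3 CPM per kilobase for Alox5ap, and there the ranges of Ptgs1 and Alox5ap overlapped, as did those of Ltc4s and Ptger2 and those of Ptgs2 and Ptges.

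Under anti-CD40 the order was less separated. In WT anti-CD40 livers the 6 highest means were 71.0 ± 66.4 for Hpgd, 47.3 ± 26.3 for Alox5ap, 37.9 ± 39.8 for Ptgs2, 18.7 ± 1.74 for Ltc4s, 12.6 ± 6.49 for Ptges and 11.1 ± 3.14 CPM per kilobase for Ptgs1, and each overlapped its neighbour. Hpgds was last there, at 0.435 ± 0.113 CPM per kilobase. In sph/sph anti-CD40 livers Hpgd at 156 ± 132, Alox5ap at 102 ± 14.8 and Ptgs1 at 74.7 ± 11.8 CPM per kilobase stayed ahead of the other 7 genes, whose means lay between 0.951 and 6.75 with overlapping neighbours.

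In WT livers 3 of the 10 genes rose under anti-CD40, Ptgs2, Ptges and Ptger4, and 5 fell, Ptgs1, Hpgds, Hpgd, Alox5ap and Ptger2, while Alox5 and Ltc4s did not pass the test. Of all genes tested, 19.4% were called higher and 19.7% lower. A gene is called changed here at a Benjamini-Hochberg adjusted p under 0.05 in edgeR's quasi-likelihood test, and 39.2% were called in this comparison in either direction. The median log2 fold difference of the 10 genes was -0.90, against 0.05 for all genes tested. In sph/sph livers the same comparison called 0 of the 10, with 0.78% of all genes called. There, 7 of the 10 had an unadjusted p under 0.05, against 2901 of the 13844 genes tested. DESeq2 called 5 of the 10 and 1372 genes of the whole table, and limma-voom called 0 and 88. The median log2 fold difference was -0.63 against 0.04 for all genes. Without sph/sph anti-CD40 C, which raised the number of called genes of the whole table to 2372 and their share to 16.9%, edgeR called 6 of the 10: Ptgs2 and Ptges as higher and Ptgs1, Hpgds, Hpgd and Ltc4s as lower.

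Between the genotypes under anti-CD40, Ptgs1, Hpgds and Ptger2 were higher in sph/sph livers and Ltc4s and Ptger4 were lower. These 5 of 10 stand against 17.7% of all genes called, 11.5% as higher and 6.19% as lower, and the median log2 fold difference was 0.54 against 0.08. Under saline 0 of the 10 were called in edgeR's test, against 2.04% of all genes. Only the unadjusted p of Hpgds was under 0.05 there, against 1817 of the 13844 genes tested. DESeq2 and limma-voom called 0 of the 10 each, against 831 and 254 genes of the whole table. A test of the difference between the 2 responses called Ptgs1, Hpgds and Ptger2, 3 of 10 and all as higher, against 3.18% of all genes called higher and 4.3% called in either direction. The 4 comparisons and this test share libraries, so their values stand side by side and are not independent. A lack of overlap between the libraries of 2 groups was common among all genes tested. It held for 57.3% in the WT response and 21.7% in the sph/sph response. Between genotypes it held for 28.4% under anti-CD40 and 31% under saline.

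**Figure D2:**
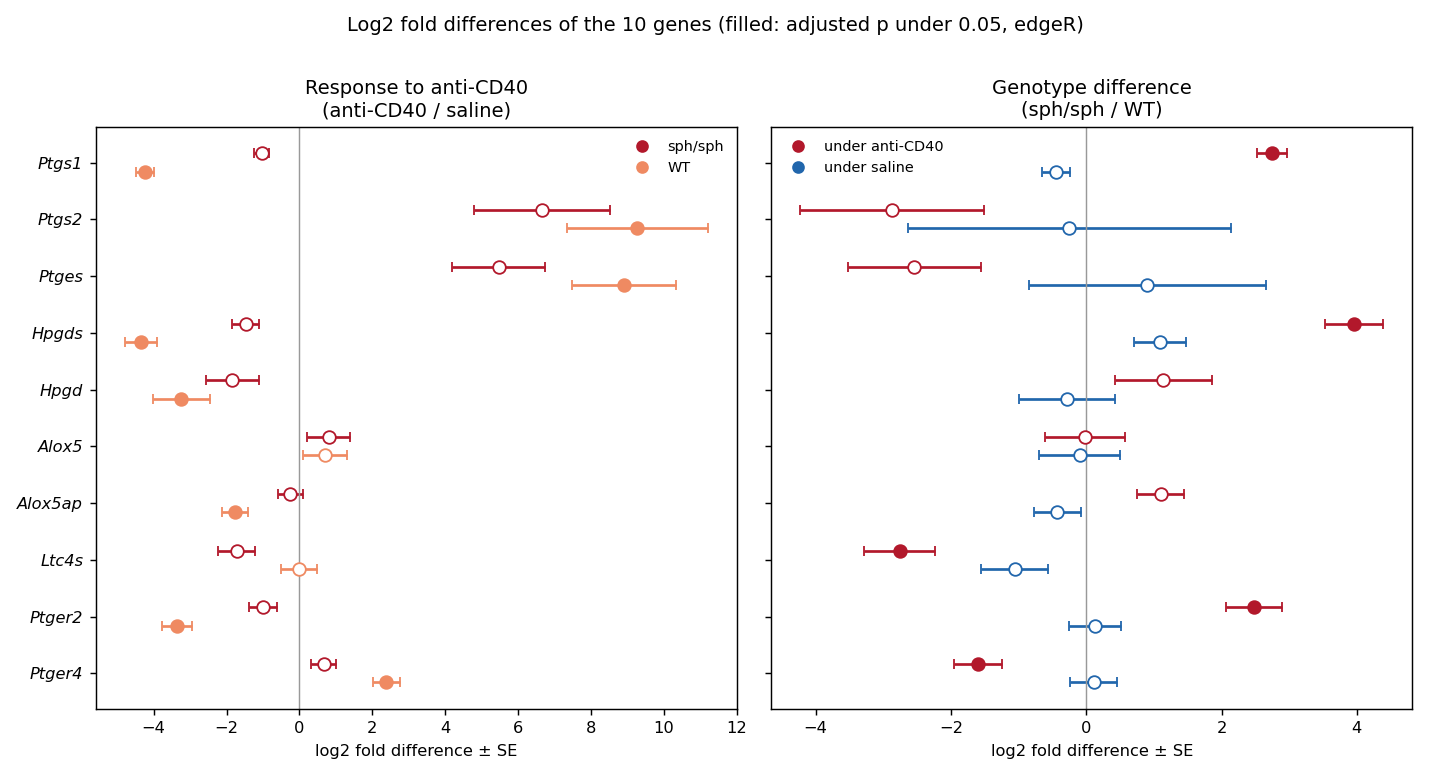
Log2 fold difference ± SE (horizontal axes) of each of the 10 genes, on the left for anti-CD40 over saline in sph/sph and in WT livers, on the right for sph/sph over WT under anti-CD40 and under saline, with filled points for an adjusted p under 0.05. Filled points for the WT response run between -4.35 (Hpgds) and 9.28 (Ptgs2), no sph/sph response is filled, and no difference under saline is filled.

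Ptgs1, which encodes the constitutive cyclooxygenase-1, had 239, 303 and 328 CPM in sph/sph anti-CD40 livers, 32.6, 40.5 and 56.5 CPM in WT anti-CD40 livers, 610, 553 and 623 CPM in sph/sph saline livers and 866, 752 and 826 CPM in WT saline livers. The 4 groups did not overlap, and the WT anti-CD40 libraries were the lowest. In WT livers Ptgs1 fell by 4.24 ± 0.24 on the log2 scale (SE), an 18.8-fold lower level (adjusted p = 3e-06, edgeR). In sph/sph livers the log2 fold difference was -1.04 ± 0.21 (adjusted p = 0.0519, edgeR), and it was -1.14 with an adjusted p of 0.014 without sph/sph anti-CD40 C. Leaving out WT anti-CD40 A or WT anti-CD40 C, which enter that fit through the shared estimate of spread, also brought it under the threshold (adjusted p = 0.0313 and 0.045). Under anti-CD40 the level of Ptgs1 in sph/sph livers was 6.70-fold that in WT livers (log2 2.74 ± 0.22, adjusted p = 6.1e-05), and under saline the log2 fold difference was -0.45 ± 0.21 (adjusted p = 0.396). The difference between the responses was 3.20 ± 0.30 on the log2 scale (adjusted p = 0.000399, edgeR). It was the one difference between responses among the 10 genes that stayed called in each of the 12 fits that left out 1 library. The Kupffer cell marker sums given above were lowest in the same 3 WT anti-CD40 libraries. Platelets are rich in cyclooxygenase-1, and the megakaryocyte and platelet list summed to 37.2 to 441 CPM in sph/sph anti-CD40 livers and 49.5 to 66.3 CPM in WT anti-CD40 livers. The part of these cells and of Kupffer cells in the Ptgs1 difference was not tested.

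Ptgs2 encodes cyclooxygenase-2, the inducible form. It had 12.4, 58.7 and 0 CPM in sph/sph anti-CD40 livers and 384, 65.7 and 70.7 CPM in WT anti-CD40 livers, against 0.466, 0.237 and 0 CPM in sph/sph saline livers and 0.386, 0.220 and 0.222 CPM in WT saline livers. Every WT anti-CD40 library was above every saline library, while sph/sph anti-CD40 C, with 0 reads where 3 counts would be 0.162 CPM, was among the saline values. In WT livers Ptgs2 rose by 9.28 ± 1.94 on the log2 scale, 621-fold (adjusted p = 0.0046, edgeR), from a base of 14 counts over the 3 saline libraries, so the fold is poorly fixed. Without WT anti-CD40 A, the library with 384 CPM, the rise was 7.93 (adjusted p = 0.0107). The call was lost in limma-voom (8.73, adjusted p = 0.0681) and without the 4 A libraries (8.22, adjusted p = 0.0725). For sph/sph livers it was 6.66 ± 1.86 (adjusted p = 0.103), and 7.25 with an adjusted p of 0.0052 without library C of that group. Between genotypes under anti-CD40 it was -2.87 ± 1.36 (adjusted p = 0.178, 95% interval -6.00 to 0.25), and the sph/sph libraries were all lower than the WT libraries. That difference was not called without sph/sph anti-CD40 C either (-2.26, adjusted p = 0.103), and was called in limma-voom with the identifier block (-6.58, adjusted p = 0.0199).

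Ptges encodes the inducible microsomal prostaglandin E synthase, which works downstream of cyclooxygenase-2. It had 12.9, 12.5 and 0.270 CPM in sph/sph anti-CD40 livers and 61.5, 67.1 and 20.4 CPM in WT anti-CD40 livers, against 0.266, 0.237 and 0.0582 CPM in sph/sph saline livers and 0, 0.0549 and 0.222 CPM in WT saline livers. As for Ptgs2, sph/sph anti-CD40 C lay near the saline level and apart from the other 2 libraries of its group. The rise in WT livers was 8.91 ± 1.44 on the log2 scale, 482-fold (adjusted p = 0.00115, edgeR), over a base of 5 counts in the 3 saline libraries, and it was 10.39 without WT saline C, which held 4 of those 5. The log2 fold difference in sph/sph livers was 5.47 ± 1.28 (adjusted p = 0.0737), and 6.04 without library C (adjusted p = 0.00135). Under anti-CD40 the sph/sph libraries lay below all WT libraries, with a log2 fold difference of -2.54 ± 0.98 (adjusted p = 0.103). That difference was -1.96 without sph/sph anti-CD40 C (adjusted p = 0.0321), -2.57 by DESeq2 (adjusted p = 0.0494) and -3.85 by limma-voom (adjusted p = 0.0369).

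Monocyte marker sums overlapped between the genotypes under anti-CD40, which Ptgs2 and Ptges did not. The sph/sph anti-CD40 libraries A, B and C had monocyte sums of 2220, 1510 and 534 CPM, and library C, with Ptgs2 at 0 CPM, had the lowest of the 3. The WT anti-CD40 libraries had 3240, 2380 and 1200 CPM. The T and NK cell list summed to 62.3, 5.84 and 126 CPM in the sph/sph anti-CD40 libraries and 232, 2050 and 752 CPM in the WT anti-CD40 libraries, with Trac at 0 in sph/sph anti-CD40 B. The part of these cells in the levels of Ptgs2 and Ptges was not tested.

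Hpgds encodes haematopoietic prostaglandin D synthase, which makes prostaglandin D2. It had 30.2, 23.2 and 76.7 CPM in sph/sph anti-CD40 livers, 3.59, 2.62 and 2.17 CPM in WT anti-CD40 livers, 133, 101 and 130 CPM in sph/sph saline livers and 58.8, 54.9 and 56.5 CPM in WT saline livers. WT anti-CD40 was the lowest group and sph/sph saline the highest, and of the sph/sph anti-CD40 libraries only C, at 76.7 CPM, was above the WT saline libraries. In WT livers Hpgds fell by 4.35 ± 0.44 on the log2 scale, to a 20.4-fold lower level (adjusted p = 8.98e-05, edgeR). The response in sph/sph livers was -1.48 ± 0.38 (adjusted p = 0.0908), and -2.19 without library C (adjusted p = 0.000677). Under anti-CD40 Hpgds was 15.6-fold higher in sph/sph livers (log2 3.96 ± 0.43, adjusted p = 0.000316), or 9.64-fold without library C (log2 3.27). Under saline every sph/sph library was above every WT library, where 31% of all genes tested did not overlap. The log2 fold difference was 1.09 ± 0.38 (adjusted p = 0.215, edgeR). Without sph/sph anti-CD40 C it was 1.08 ± 0.18 with an adjusted p of 0.0124 (0.00942 in a fit to the saline groups alone). The difference between responses was 2.87 ± 0.55 (adjusted p = 0.0186, edgeR). It was 2.19 without sph/sph anti-CD40 C and 3.33 without the 4 A libraries (adjusted p = 0.12). It lost its call without WT anti-CD40 B, sph/sph saline A, sph/sph saline B or WT saline A, with an adjusted p of at most 0.0599 among those 4 fits, and in limma-voom (2.74, adjusted p = 0.0753), also with libraries of the same identifier as a random block (2.50, adjusted p = 0.0561). Mast cells, which also use this enzyme, had marker sums of 16.2 to 179 CPM in sph/sph anti-CD40 livers and 137 to 609 CPM in WT anti-CD40 livers. Eosinophils use it too, and their list of 7 genes summed to 132 to 346 CPM in sph/sph anti-CD40 livers, 2.06 to 3.46 CPM in WT anti-CD40 livers, 319 to 463 CPM in sph/sph saline livers and 24.3 to 93.0 CPM in WT saline livers. Within each treatment these sums, like Hpgds, were higher in every sph/sph library than in every WT library, while between treatments all sph/sph anti-CD40 sums were above the WT saline sums, where Hpgds had 2 of 3 sph/sph anti-CD40 libraries below. Ccr3 gave 247 to 326 CPM of the sph/sph saline sums, and the granule gene Epx 2.50 to 32.8 CPM there and 0 to 0.0985 CPM in WT anti-CD40 livers. The part of these cells and of Kupffer cells in Hpgds was not tested.

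**Figure D3:**
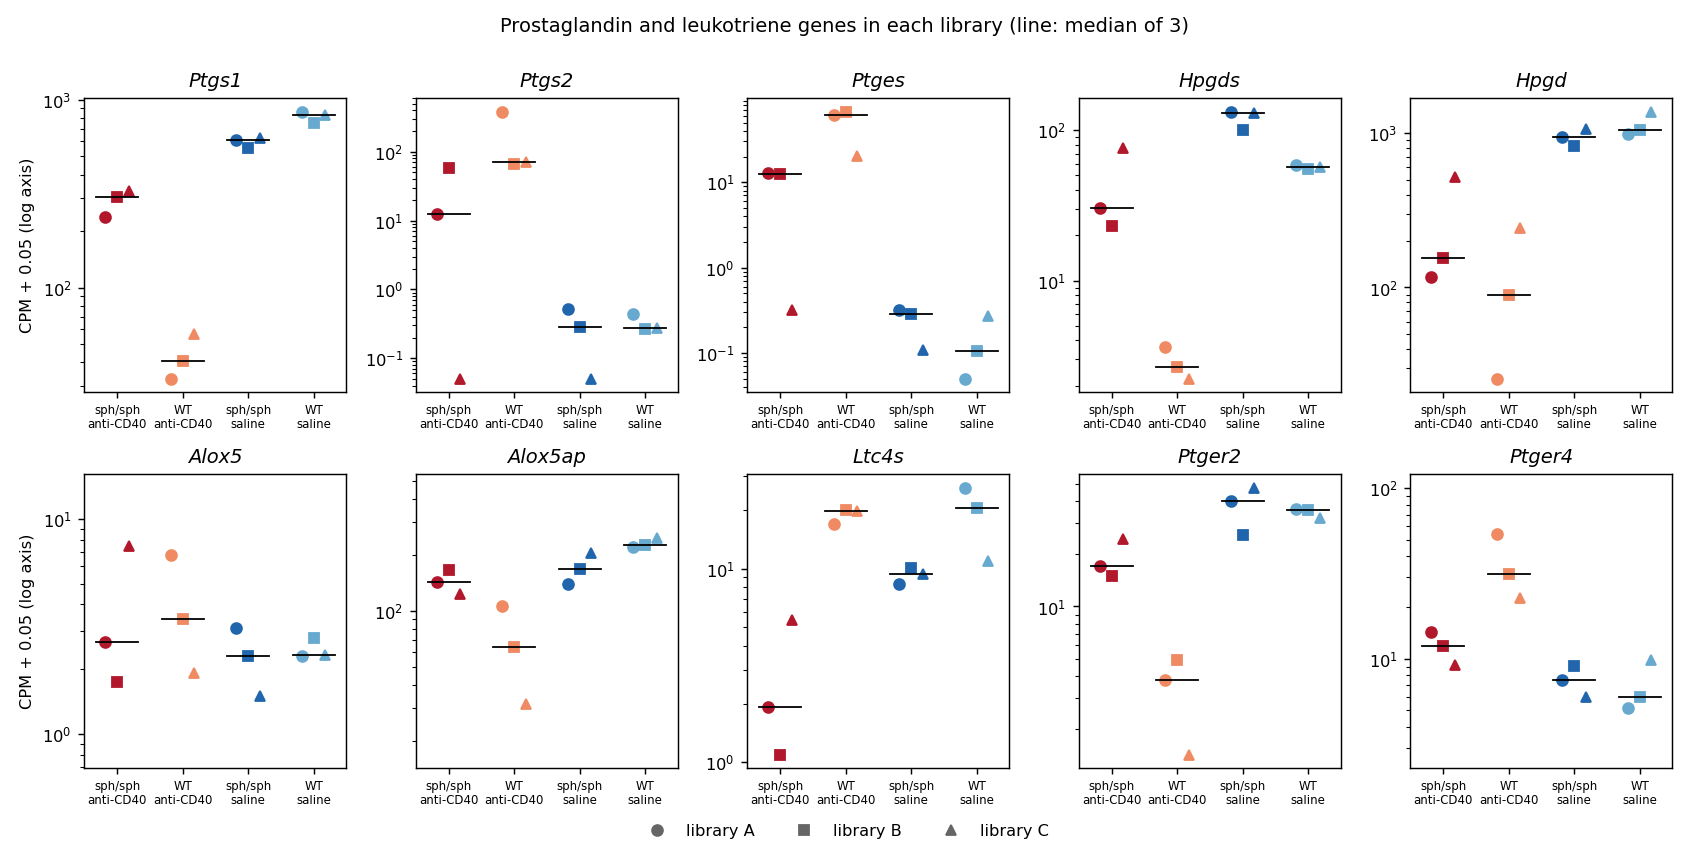
CPM plus 0.05 (log axes) of each of the 10 genes in each library, with groups from left to right sph/sph anti-CD40, WT anti-CD40, sph/sph saline and WT saline, 1 symbol per library and a line at the group median. Ptgs2 and Ptges were above 20 CPM in the WT anti-CD40 libraries and at 0.466 CPM or less in all saline libraries, while Ptgs1, Hpgds and Ptger2 were lowest in the WT anti-CD40 libraries.

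The 250 bases before the start of transcription are shown for the 3 genes that rose in WT livers and for the 2 that fell with the smallest adjusted p, as the sequences that stand in front of the oppositely moving members. They were taken from RefSeq on GRCm38.p6 and are written in the direction of the gene, with matches to the motifs searched in capitals. Ptgs2 lies on the forward strand at chr1:150099781-150100030, Ptges on the reverse strand at chr2:30903298-30903547, Ptger4 on the reverse strand at chr15:5244188-5244437, Ptgs1 on the forward strand at chr2:36230176-36230425 and Hpgds on the reverse strand at chr6:65144731-65144980.
Ptgs2: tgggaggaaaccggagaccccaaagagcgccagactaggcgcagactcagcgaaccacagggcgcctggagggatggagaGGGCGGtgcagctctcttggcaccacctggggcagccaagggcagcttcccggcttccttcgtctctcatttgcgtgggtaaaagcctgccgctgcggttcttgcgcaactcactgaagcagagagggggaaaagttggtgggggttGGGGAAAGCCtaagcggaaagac
Ptges: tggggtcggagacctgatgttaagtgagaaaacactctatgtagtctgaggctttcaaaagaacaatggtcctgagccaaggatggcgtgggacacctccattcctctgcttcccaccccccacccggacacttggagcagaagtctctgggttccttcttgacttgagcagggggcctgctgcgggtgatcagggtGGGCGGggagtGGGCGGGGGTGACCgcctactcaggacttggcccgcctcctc
Ptger4: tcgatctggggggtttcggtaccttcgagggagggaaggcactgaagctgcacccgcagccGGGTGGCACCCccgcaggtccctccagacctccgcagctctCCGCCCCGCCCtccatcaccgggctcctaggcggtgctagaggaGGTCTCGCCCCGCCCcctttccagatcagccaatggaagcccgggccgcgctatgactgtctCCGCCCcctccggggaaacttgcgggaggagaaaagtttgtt
Ptgs1: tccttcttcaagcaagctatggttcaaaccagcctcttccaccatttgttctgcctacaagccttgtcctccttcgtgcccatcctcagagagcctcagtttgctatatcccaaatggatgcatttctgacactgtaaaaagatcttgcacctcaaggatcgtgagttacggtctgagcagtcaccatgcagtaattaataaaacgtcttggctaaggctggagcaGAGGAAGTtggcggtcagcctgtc
Hpgds: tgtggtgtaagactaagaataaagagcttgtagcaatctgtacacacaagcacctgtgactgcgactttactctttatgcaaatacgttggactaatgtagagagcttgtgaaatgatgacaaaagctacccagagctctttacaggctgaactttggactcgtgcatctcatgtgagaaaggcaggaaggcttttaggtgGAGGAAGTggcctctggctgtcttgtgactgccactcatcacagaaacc

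Each window was searched on both strands for 8 motifs. The NF-kB-type motif, GGG and CC with any 5 bases between them, occurs in 45.8% of the 32851 promoters of the same length, the GC box GGGCGG in 32.7%, TATAAA in 12.4%, TGANTCA (AP-1) in 6.75%, CACGTG (E-box) in 6.02%, the ISRE-type motif, a pair of GAAA with any 2 bases between them, in 2.98%, GAGGAAGT (PU.1-type) in 2.44% and TGACGTCA (CRE) in 1.55%. Ptgs2 had an NF-kB-type match at bases -23 to -14, counted back from -1 as the base before the start, and a GC box at -170 to -165. Ptges had an NF-kB-type match at -38 to -29, overlapping a GC box at -42 to -37, and another GC box at -53 to -48. Ptger4 had overlapping NF-kB-type matches at -189 to -180 and -188 to -179, another at -104 to -95 and 4 GC boxes, of which those at -148 to -143 and -143 to -138 overlap each other and that at -95 to -90 overlaps the NF-kB-type match. Ptgs1 and Hpgds had no NF-kB-type match in these letters and 1 PU.1-type match each, at -24 to -17 and at -49 to -42. Of the members whose windows are not shown, Alox5, not called in WT livers, had NF-kB-type matches at -53 to -44 and -35 to -26. The latter overlaps a GC box at -35 to -30. Hpgd, which fell in WT livers, had a GC box at -50 to -45 and no NF-kB-type match. Ltc4s and Ptger2 had no match to any motif, and Alox5ap has no window here. The NF-kB-type letters occur in nearly as many promoters as not, and a match is a description of the letters.

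Hpgd encodes 15-hydroxyprostaglandin dehydrogenase, the enzyme that inactivates prostaglandins. It had 117, 155 and 518 CPM in sph/sph anti-CD40 livers, 25.5, 90.0 and 243 CPM in WT anti-CD40 livers, 938, 821 and 1060 CPM in sph/sph saline livers and 990, 1050 and 1380 CPM in WT saline livers. All 6 anti-CD40 libraries were below all 6 saline libraries, and within both anti-CD40 groups library C was the highest. In WT livers Hpgd fell by 3.25 ± 0.78 on the log2 scale, to a 9.52-fold lower level (adjusted p = 0.00866, edgeR), with a log2 fold difference of -4.33 without WT anti-CD40 C. The endothelial marker sums of the WT anti-CD40 libraries A, B and C were 1430, 3000 and 5280 CPM, in the same order as Hpgd. Those of the sph/sph anti-CD40 libraries were 709, 1290 and 3240 CPM, also in the same order. Under saline the sums were 2920, 3320 and 1650 CPM in sph/sph livers and 2620, 4890 and 4020 CPM in WT livers. Neither of these saline groups had the order of Hpgd. This order is not particular to the endothelial list. The mast cell and basophil sums had it in WT anti-CD40 libraries (137, 365 and 609 CPM) and in sph/sph anti-CD40 libraries (16.2, 22 and 179 CPM). In neither saline group did they have the order of Hpgd. The part of endothelial cells and of mast cells and basophils in Hpgd was not tested. The log2 fold difference in sph/sph livers was -1.84 ± 0.73 (adjusted p = 0.192), and -2.80 without library C (adjusted p = 0.0339). The genotypes overlapped under both treatments, with log2 fold differences of 1.14 ± 0.72 under anti-CD40 (adjusted p = 0.318; 0.18 without sph/sph anti-CD40 C and 2.19 without WT anti-CD40 C, neither called) and -0.28 ± 0.71 under saline (adjusted p = 0.919).

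Ptger2 and Ptger4 encode the prostaglandin E2 receptors EP2 and EP4, which both raise cyclic AMP in the cell, and they moved in opposite directions. Ptger2 had 16.9, 14.9 and 24.2 CPM in sph/sph anti-CD40 livers, 3.79, 4.88 and 1.38 CPM in WT anti-CD40 livers, 40.0, 25.6 and 47.5 CPM in sph/sph saline livers and 36.0, 35.3 and 31.9 CPM in WT saline livers. It fell by 3.36 ± 0.42 on the log2 scale in WT livers, to a 10.3-fold lower level (adjusted p = 0.000286, edgeR). In sph/sph livers every anti-CD40 library was also below every saline library, with a log2 fold difference of -1.01 ± 0.38 (adjusted p = 0.174). Under anti-CD40 Ptger2 was 5.58-fold higher in sph/sph livers (log2 2.48 ± 0.41, adjusted p = 0.00288), a call lost without the 4 A libraries (log2 2.65, adjusted p = 0.057). Under saline the genotypes overlapped (log2 0.13 ± 0.38, adjusted p = 0.927). The difference between responses was 2.35 ± 0.55 (adjusted p = 0.0409). That call was the least stable of the 3, since it held in 4 of the 12 fits that left out 1 library, with an adjusted p of up to 0.105 in the others, and was lost with a term for the A libraries (2.35, adjusted p = 0.0522) and without them (2.52, adjusted p = 0.243).

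Ptger4 had 14.4, 11.9 and 9.17 CPM in sph/sph anti-CD40 livers, 53.7, 31.5 and 22.7 CPM in WT anti-CD40 livers, 7.45, 9.08 and 5.88 CPM in sph/sph saline livers and 5.08, 5.88 and 9.75 CPM in WT saline livers. The WT anti-CD40 libraries were the highest of the 4 groups and did not overlap any other. In WT livers it rose by 2.38 ± 0.37 on the log2 scale, 5.20-fold (adjusted p = 0.000863, edgeR), and in sph/sph livers the log2 fold difference was 0.66 ± 0.35 (adjusted p = 0.306). Under anti-CD40 Ptger4 was 3.04-fold lower in sph/sph livers (log2 -1.60 ± 0.36, adjusted p = 0.0127), a call lost without the 4 A libraries (-1.36, adjusted p = 0.0803). Under saline the log2 fold difference was 0.11 ± 0.35 (adjusted p = 0.935). The difference between responses, -1.72 ± 0.50, was not called by edgeR (adjusted p = 0.0879) and was called by DESeq2 (-1.75, adjusted p = 0.0156). Ptger4 overlaps Ttc33 on the opposite strand, which held up to 484 counts in a library, and since no source used here says whether counting was by strand, reads of the overlap could belong to either gene.

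A share of counts within a library does not depend on how the library is scaled, so 3 pairs of members were also read in this way, with 95% Clopper-Pearson intervals that cover counting error only. Ptgs2 made up 4.95% (4.27 to 5.71), 16.2% (15.2 to 17.3) and 0% (upper bound 0.0607) of the Ptgs2 and Ptgs1 counts in sph/sph anti-CD40 livers, against 92.2% (91.5 to 92.8), 61.9% (59.7 to 64.0) and 55.6% (53.6 to 57.5) in WT anti-CD40 livers. In the 6 saline libraries of both genotypes this share was at most 0.0763%. Cyclooxygenase-2 counts thus outnumbered those of cyclooxygenase-1 in every WT anti-CD40 library and in no other library.

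Of the Ptges and Hpgds counts, those of the prostaglandin E2 and D2 synthases, Ptges made up 29.9% (26.3 to 33.6), 35.1% (30.8 to 39.5) and 0.350% (0.114 to 0.816) in sph/sph anti-CD40 livers and 94.5% (92.9 to 95.8), 96.2% (95.1 to 97.2) and 90.4% (87.3 to 92.9) in WT anti-CD40 livers. The saline share was at most 0.391%. Of the Ptger4 and Ptger2 counts, Ptger4 made up 46.0%, 44.4% and 27.5% in sph/sph anti-CD40 livers and 93.4%, 86.6% and 94.3% in WT anti-CD40 livers, against 15.7%, 26.2% and 11% in sph/sph saline livers and 12.4%, 14.3% and 23.4% in WT saline livers. For all 3 pairs the sph/sph anti-CD40 libraries lay below the WT anti-CD40 libraries without overlap. This follows from the levels given above and is no further evidence. Each pair joins a gene lower in every sph/sph anti-CD40 library than in any WT anti-CD40 library with a gene that was higher in every one. The genes of a pair differ in length, so a share is of counts and not of transcripts, but it can be compared between libraries.

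**Figure D4:**
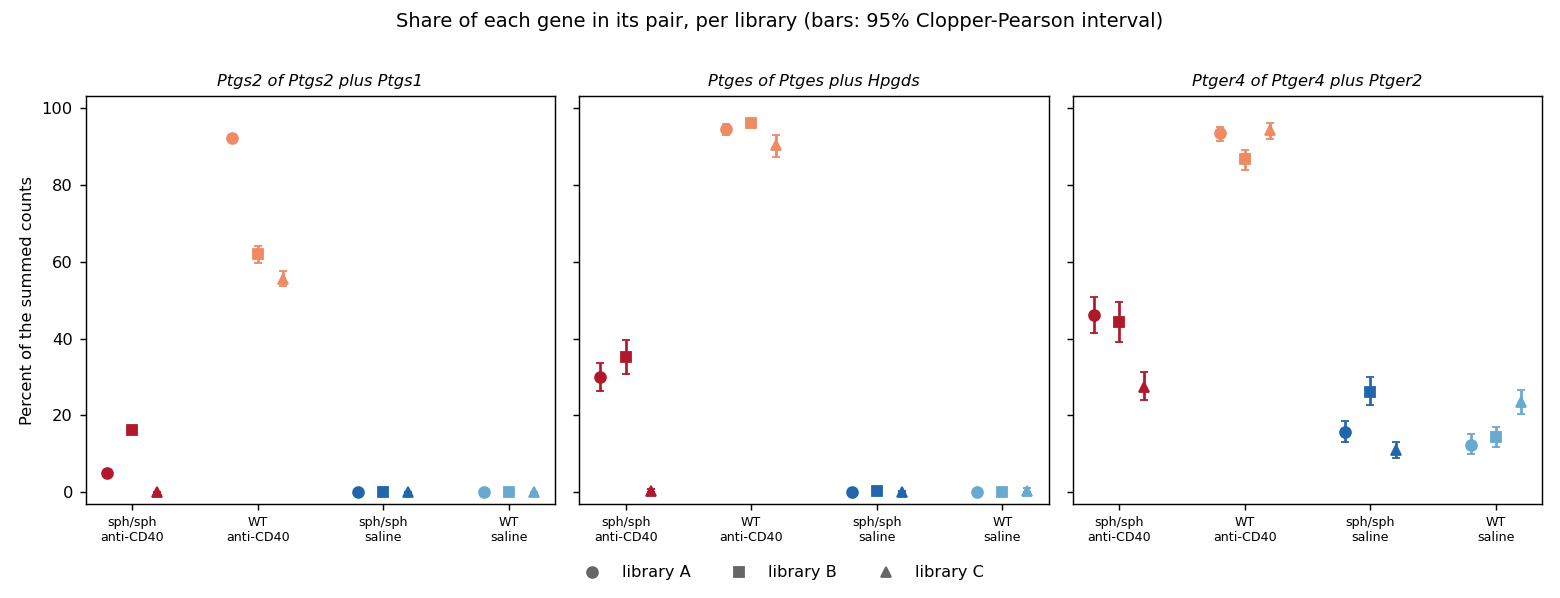
Percent of the summed counts of a pair that belongs to Ptgs2 (with Ptgs1), Ptges (with Hpgds) and Ptger4 (with Ptger2) in each library, with 95% Clopper-Pearson intervals and with groups from left to right sph/sph anti-CD40, WT anti-CD40, sph/sph saline and WT saline. The WT anti-CD40 libraries lie at 55.6% or above in each panel and the sph/sph anti-CD40 libraries at 46.0% or below.

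The leukotriene genes did not move as a block. Alox5 encodes 5-lipoxygenase, which makes leukotriene A4, and it was low in all groups, with 2.63, 1.70 and 7.39 CPM in sph/sph anti-CD40 livers, 6.72, 3.36 and 1.87 CPM in WT anti-CD40 livers, 3.06, 2.26 and 1.45 CPM in sph/sph saline livers and 2.25, 2.75 and 2.27 CPM in WT saline livers. The 4 groups overlapped. The log2 fold difference was 0.80 ± 0.60 for anti-CD40 in sph/sph livers (adjusted p = 0.464) and 0.71 ± 0.60 in WT livers (adjusted p = 0.365, 95% interval -0.67 to 2.09), so a change of this size was within the spread between libraries. The neutrophil list, of cells known for this enzyme, summed to 165 to 352 CPM in sph/sph anti-CD40 livers and 211 to 653 CPM in WT anti-CD40 livers. The library with the highest Alox5 of the 12, sph/sph anti-CD40 C, had the highest B cell sum. In the WT anti-CD40 libraries A, B and C the B cell sums were 108, 431 and 568 CPM, the reverse of the order of Alox5. The part of neutrophils and B cells in Alox5 was not tested.

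Alox5ap encodes the 5-lipoxygenase-activating protein, which presents arachidonic acid to the enzyme. It had 143, 166 and 124 CPM in sph/sph anti-CD40 livers, 106, 64.2 and 31.4 CPM in WT anti-CD40 livers, 140, 169 and 206 CPM in sph/sph saline livers and 221, 227 and 246 CPM in WT saline livers. It fell by 1.78 ± 0.36 on the log2 scale in WT livers, to a 3.44-fold lower level (adjusted p = 0.00357, edgeR), while the sph/sph groups overlapped (log2 -0.25 ± 0.35, adjusted p = 0.717). Under anti-CD40 every sph/sph library was above every WT library, with a log2 fold difference of 1.10 ± 0.35 (adjusted p = 0.0538). That call came without sph/sph anti-CD40 C (1.21, adjusted p = 0.0454), without WT anti-CD40 A (1.60, adjusted p = 0.00608), without the 4 A libraries (1.60, adjusted p = 0.0479), in DESeq2 (1.07, adjusted p = 0.0179) and in limma-voom (1.26, adjusted p = 0.035, or 1.04 with an adjusted p of 0.0394 with the identifier block). The difference between responses was 1.53 ± 0.49 (adjusted p = 0.117), 2.03 without WT anti-CD40 A (adjusted p = 0.0145) and 1.5 by DESeq2 (adjusted p = 0.0391).

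Ltc4s encodes leukotriene C4 synthase, which joins leukotriene A4 to glutathione. It had 1.87, 1.04 and 5.40 CPM in sph/sph anti-CD40 livers, 16.9, 20.1 and 19.8 CPM in WT anti-CD40 livers, 8.31, 10.0 and 9.31 CPM in sph/sph saline livers and 26.2, 20.6 and 10.9 CPM in WT saline livers. The sph/sph anti-CD40 libraries were the lowest of the 4 groups, and the WT groups overlapped. Under anti-CD40 it was 6.76-fold lower in sph/sph livers (log2 -2.76 ± 0.53, adjusted p = 0.00623, edgeR), and 12.9-fold lower without sph/sph anti-CD40 C (log2 -3.69). The call was lost without the 4 A libraries (-2.61, adjusted p = 0.0844) and in a fit to these 2 groups alone (-2.81, adjusted p = 0.0564). The log2 fold difference for anti-CD40 in sph/sph livers was -1.72 ± 0.51 (adjusted p = 0.115), and -2.67 without library C (adjusted p = 0.00366). In WT livers it was -0.02 ± 0.49 (adjusted p = 0.981, 95% interval -1.14 to 1.10), and under saline between genotypes -1.06 ± 0.49 (adjusted p = 0.398). The difference between responses was -1.70 ± 0.70 (adjusted p = 0.224), and -2.62 without library C (adjusted p = 0.0178). The mast cell and basophil sums were 16.2, 22.0 and 179 CPM in sph/sph anti-CD40 livers and 137, 365 and 609 CPM in WT anti-CD40 livers, and the part of these cells was not tested. An antisense gene for which no counts were used here overlaps Ltc4s, and others overlap Alox5ap and Ptger2, so reads of these genes cannot be assigned to a strand here.

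The rest of the pathway was read from 59 other genes listed by role, of which 58 were found and 46 tested. In WT livers 5 rose and 17 fell under anti-CD40, against 39.2% of all genes called, with a median log2 fold difference of -0.16. In sph/sph livers edgeR called 0 of the 46, with 12 at an unadjusted p under 0.05. DESeq2 called 6, limma-voom 0 and edgeR without sph/sph anti-CD40 C 10. Of the 13844 genes tested, 2901 had an unadjusted p under 0.05 there, and DESeq2 called 1372 genes and limma-voom 88. Without sph/sph anti-CD40 C edgeR called 16.9% of all genes, so these counts are near the background. Under anti-CD40 10 were higher and 2 lower in sph/sph than in WT livers, against 17.7% of all genes called, with a median of 0.50 against 0.08 for all genes. Under saline 2 of the 46 were higher, against 2.04% of all genes called, so that count is close to the background. Of the calls named below, those of Plaat3 (adjusted p = 0.0769) and Mgst2 (adjusted p = 0.103) in WT livers, of Pla2g5 (adjusted p = 0.256) and Prxl2b (adjusted p = 0.27) under saline and of Alox12 between genotypes under anti-CD40 (adjusted p = 0.0867) were lost without the 4 A libraries. In a fit to the 2 anti-CD40 groups alone the genotype calls of Tbxas1 (adjusted p = 0.0536), Cysltr2 (adjusted p = 0.124) and Alox12 (adjusted p = 0.0942) were lost.

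Of the 13 arachidonate release genes tested, 1 rose and 4 fell in WT livers, against 39.2% of all genes called, so that count is close to the background. Pla2g15, a lysosomal phospholipase, fell by 3.36 ± 0.27 on the log2 scale (adjusted p = 2.49e-05) and Daglb, a diacylglycerol lipase, by 2.42 ± 0.24 (adjusted p = 7.3e-05), while Plaat3, a phospholipase A and acyltransferase, rose by 1.93 ± 0.47 (adjusted p = 0.00949, edgeR). Under anti-CD40 Pla2g15 had 209, 198 and 255 CPM in sph/sph livers and 48.1, 23.8 and 32.3 CPM in WT livers, which do not overlap. Pla2g5, a secreted phospholipase A2, had 0.865, 0.712 and 0.989 CPM in sph/sph saline livers and 0 counts in all 3 WT saline libraries, and its sph/sph level was at least 14.8-fold higher against a floor of 3 counts over the group. That call was lost in each of the 6 fits without 1 saline library. Prxl2b, a prostamide and prostaglandin F synthase, was the other gene called under saline, higher by 1.52 in sph/sph livers, and held in 4 of 12 such fits. Of the 4 re-esterification genes, which return arachidonate to phospholipids, 3 fell in WT livers, against 19.7% of all genes called lower. Lpcat2 had the largest fall of them, at -1.68 (adjusted p = 0.00655, edgeR).

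Of the 7 other prostanoid synthases tested, 1 rose and 5 fell in WT livers, against 39.2% of all genes called. Ptgis, prostacyclin synthase, fell by 3.63 (adjusted p = 0.00891), Tbxas1, thromboxane synthase, by 2.77 (adjusted p = 0.000844) and Cbr1, a carbonyl reductase that can reduce prostaglandin E2, by 1.78 (adjusted p = 0.000146). Tbxas1 had 148, 192 and 153 CPM in sph/sph anti-CD40 livers and 58.6, 24.0 and 15.8 CPM in WT anti-CD40 livers. Under anti-CD40 4 synthases of this list were higher in sph/sph livers, against 11.5% of all genes called higher. They were Prxl2b by 2.45, Tbxas1 by 2.32, the aldo-keto reductase Akr1b3 by 1.43 and Cbr1 by 1.28 on the log2 scale. Among 4 other prostanoid receptors, Ptgir, the prostacyclin receptor, rose by 4.91 in WT livers (adjusted p = 0.000944), with 8.84, 8.58 and 1.78 CPM in sph/sph anti-CD40 livers, 18.8, 12.9 and 6.65 CPM in WT anti-CD40 livers and at most 0.950 CPM in any saline library. Of 4 inactivation and transport genes, Ptgr2, a prostaglandin reductase, fell in WT livers by 0.60 and none was called between genotypes.

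Among the 6 genes tested of leukotriene synthesis, conversion and export, Mgst2, a microsomal enzyme that can also make leukotriene C4, rose by 2.96 in WT livers (adjusted p = 0.0195) from levels near the limit of counting, and lost the call without any of 4 libraries (WT anti-CD40 B, WT saline A, B or C). Ggt5, which converts leukotriene C4 to D4, fell by 3.49 in WT livers (adjusted p = 2.7e-05). Under anti-CD40 Ggt5 had 37.7, 61.0 and 29.6 CPM in sph/sph livers and 1.66, 2.73 and 2.56 CPM in WT livers, a log2 fold difference of 4.19 (adjusted p = 3.3e-05). Ggt1, the related enzyme, had 0 counts in all 6 saline libraries and under anti-CD40 exceeded the saline floor at least 4.92-fold in sph/sph livers and at least 12.7-fold in WT livers, the floor being 3 counts over each saline group. Of the 5 leukotriene and lipoxin receptors tested, Cysltr1, a receptor for leukotriene D4, fell in WT livers by 2.49 and Cmklr1, a receptor for chemerin, by 1.81, while Cysltr2 was lower in sph/sph than in WT livers under anti-CD40 by 1.40 on the log2 scale, a call lost without sph/sph anti-CD40 A or B or without WT anti-CD40 B or C. Among other lipoxygenases, Alox12, the platelet-type 12-lipoxygenase, rose in WT livers by 5.31 (adjusted p = 0.00283, edgeR). It had 2.76, 3.70 and 20.0 CPM in sph/sph anti-CD40 livers and 32.8, 149 and 167 CPM in WT anti-CD40 livers. The endothelial sums and the mast cell and basophil sums given beside Hpgd both run in the same order within both anti-CD40 groups. Platelet marker sums, given beside Ptgs1, were highest in sph/sph anti-CD40 C, and the part of these cells in Alox12 was not tested. Ephx2, soluble epoxide hydrolase, fell by 3.01 in WT livers. The lower level of Alox12 in sph/sph livers under anti-CD40, by 3.71, was not called without sph/sph anti-CD40 A or B or without WT anti-CD40 B or C.

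**Figure D5:**
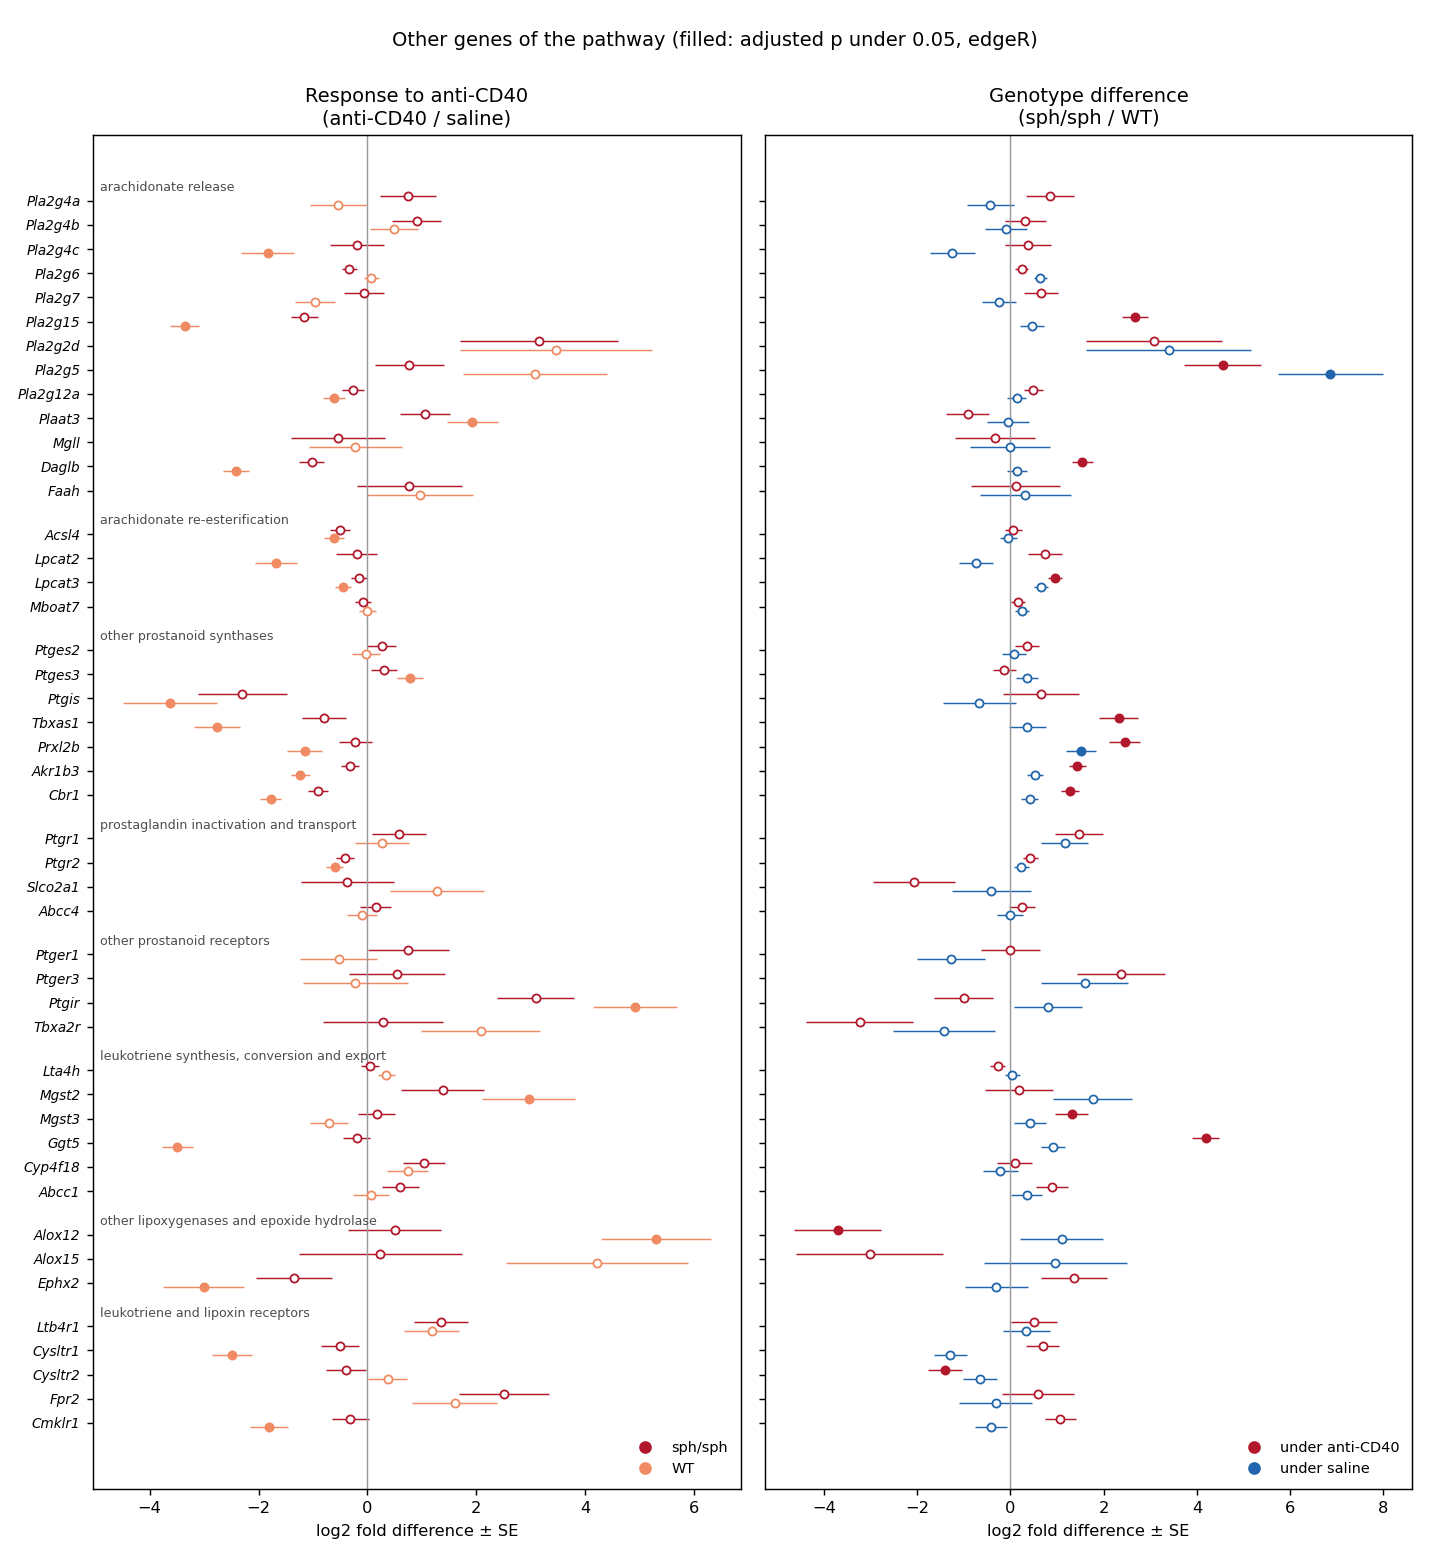
Log2 fold difference ± SE (horizontal axes) of the 46 other pathway genes tested, grouped by role, on the left for anti-CD40 over saline in sph/sph and in WT livers and on the right for sph/sph over WT under anti-CD40 and under saline, with filled points for an adjusted p under 0.05. Of the filled WT responses 5 lie to the right of 0 and 17 to the left, and no sph/sph response is filled.

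The genes with the profile most like that of a member across the 12 libraries were found by the root mean square difference of centred log2 CPM. For Ptgs1 these were Ppp1r9a (0.292), Btbd11 (0.307) and Clec1b (0.309), and Clec1b averaged 242 ± 78.0 CPM in sph/sph anti-CD40 livers, 31.9 ± 19.3 CPM in WT anti-CD40 livers, 487 ± 83.7 CPM in sph/sph saline livers and 523 ± 52.6 CPM in WT saline livers (SD, n = 3 each). For Ptgs2 they were Slc7a11 (0.723), Nudt17 (0.857) and Clec4e (0.877), and for Ptges Gm15056 (0.706), Clec4e (0.707) and Ly75 (0.828), so Clec4e, which is on the monocyte list, was near both. Clec4e averaged 180 ± 154 CPM in sph/sph anti-CD40 livers and 613 ± 249 CPM in WT anti-CD40 livers (SD, n = 3 each). For Hpgds they were Gsta4 (0.373), Tmem117 (0.419) and Arhgap19 (0.464). For Hpgd they were Mrc1 (0.420), Gm45540 (0.430) and Slc9a9 (0.437), of which Gm45540 lies within Hpgd on the same strand and may share its reads.

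For Ptger2 the nearest were Paox (0.347), Ckb (0.352) and Csf1r (0.368), the last being the receptor for the macrophage growth factor M-CSF. For Ptger4 they were Gcnt2 (0.307), Acsl1 (0.312) and Tmem39a (0.320), and for Alox5ap Cmklr1 (0.227), Cd1d1 (0.232) and P2ry6 (0.241). For Ltc4s they were Cx3cl1 (0.488), Hoxb5 (0.568) and Mill2 (0.594), and for Alox5 the mitochondrial genes mt-Nd4 (0.306), mt-Cytb (0.349) and mt-Nd2 (0.350). The distances of Ptgs2 and Ptges, which had the widest range of levels, were the largest of the 10 genes, and a small distance for Alox5 goes with its narrow range.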

How the data were processed

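Bulk RNA sequencing of F4/80-enriched liver cells gave 12 libraries, 3 per group. The authors deposited raw counts per gene and library. The submitters' processing notes name GRCm38.p5, featureCounts, SAMtools 1.9 and STAR 2.7.0e, without saying what each was used for. For the annotation release, the strand setting and multimapped reads, the value is not given in the sources used here. Counts were analysed in R 4.3.3 with edgeR 4.0.16: TMM scaling, the default filter on low counts by group, 1 mean per group over all 12 libraries, the robust quasi-likelihood F test and Benjamini-Hochberg adjustment over the 13844 genes tested, called at an adjusted p under 0.05. CPM use the TMM-scaled library sizes. Clopper-Pearson intervals of shares and the floor of 3 counts cover counting error only. Standard errors of fold differences were taken as the absolute log2 fold difference over the square root of the F value of the quasi-likelihood test. Intervals were built from them with a t distribution. Both include the spread between libraries and are approximate. limma 3.58.1 and DESeq2 1.42.0 were alternatives, with other scalings, no filter, only the groups compared, and each library left out. A term for the 4 libraries without Y-linked reads, their omission and a random block for libraries whose column names share an identifier were added after the data were seen. The method was also run on simulated data in which some genes were changed in the WT anti-CD40 libraries only. Those data held no outlying library, so the run does not bear on how stable the calls are here. Exon lengths came from GENCODE, promoters from RefSeq on GRCm38.p6. Plaat3 and Prxl2b were matched through RefSeq synonyms to older symbols in the table, and the symbol of Dpep2 belongs to more than 1 identifier, so it was not used. Same-group libraries differed by more than sampling noise. Nothing used here states whether preparations were made on separate days, and p-values measure the spread between these animals. The members, the pathway lists and the marker lists were chosen with earlier results of these data known. All 10 members were named. Of the other pathway genes, up to 3 called genes were named per list and comparison, not always those with the largest fold difference. The calls left out include those of Lpcat3, Mgst3, Pla2g5 and Daglb between genotypes under anti-CD40, all higher in sph/sph livers.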

Additional observations from a re-analysis of the deposited data

Results flagged for a closer look

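The responses of sph/sph and WT livers to anti-CD40 differed for 3 of the 10 prostaglandin and leukotriene genes by the test of the difference itself (edgeR, adjusted over all genes tested). The response of Ptgs1 in sph/sph livers minus that in WT livers was 3.20 on the log2 scale, that of Hpgds was 2.87 and that of Ptger2 was 2.35. All 3 fell in WT livers, as did Hpgd and Alox5ap, whose difference between responses was not called (adjusted p = 0.502 and 0.117, edgeR). Kupffer cell marker sums were 435 to 1040 CPM in WT anti-CD40 livers and 29500 to 34700 CPM in WT saline livers. The part of these cells in the differences was not tested. Of the other 46 pathway genes tested, 3 differed in the same way, against 4.3% of all genes called, so that count is close to the background, with 3.28 for Ggt5, 2.21 for Pla2g15 and 1.40 for Daglb. The call of Daglb held in 5 of the 12 fits that left out 1 library and those of Ggt5 and Pla2g15 in all 12. Without the 4 A libraries the calls of Hpgds (adjusted p = 0.12), Ptger2 (adjusted p = 0.243), Daglb (adjusted p = 0.13) and Pla2g15 (adjusted p = 0.0501) were lost. The call of Hpgds was also lost in limma-voom (adjusted p = 0.0753).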

How the results depend on the processing

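No paired analysis was possible because the columns of the count table carry no replicate number, so the numbers in the sample labels cannot be tied to libraries. The identifiers in the column names tie 2 pairs of libraries, the A libraries of both genotypes within a treatment, and leave 8 alone, so they were tried as a random block in limma-voom, chosen after the data were seen (correlation 0.495). That fit called 524 genes between genotypes under saline, and for the sph/sph response 48.5% of its calls were higher. Of 1036 recomputed values of the 10 genes, 957 kept their direction and side of the threshold, 24 lost and 30 gained a call, and 25 changed sign, none of them called in either fit. The sign changes were, for sph/sph against WT under anti-CD40, Alox5 at 0.05 in limma-voom, 0.09 with a term for the A libraries and 0.81 without them. For the WT response of Ltc4s they were 0.09 in limma-voom, 0.05 with the identifier block and 0.34 without the A libraries, for the difference between responses of Alox5 -0.26 with that block, and for Ptger4 between genotypes under saline -0.06 without them. Leaving out 1 library gave ranges across 0 for Alox5 (-0.07 to 1.15 for the sph/sph response, -0.74 to 0.69 for the difference between responses, -0.86 to 0.59 between genotypes under anti-CD40, -0.38 to 0.13 under saline), Ltc4s (-0.31 to 0.27, WT response), and between genotypes under saline Ptger2 (-0.07 to 0.35), Ptger4 (-0.07 to 0.45) and Ptgs2 (-1.16 to 0.34). The number of genes called for the sph/sph response was 108, and 70 with upper-quartile scaling, 1372 with DESeq2, 0 with only the groups compared, 0 without the A libraries and 0 to 2372 with 1 library left out. Its share of higher calls was 74.1%, 52.9% with DESeq2 and 48.9% with limma-voom. The WT response called 5420, and 2845 without the A libraries (3841 to 6583 with 1 library left out). The difference between responses called 595, and 1393 with DESeq2, 153 without the A libraries and 259 to 944. Genotypes under anti-CD40 called 2455, and 735 with only those groups, 1174 without the A libraries and 1355 to 3408. Genotypes under saline called 282, and 831 with DESeq2, 891 with only those groups, 13 without the A libraries and 73 to 539. The cause of these shifts was not tested, and settings that leave out libraries or groups rest on fewer libraries. Ptgs2 and Ptges rested on 14 and 5 counts in WT saline livers, so their folds are the least precise.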
